A study of Mus musculus with 4 samples.

Results

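The serpins (serine protease inhibitors) were described in Dalton's lymphoma ascites (DLA) cells, a mouse tumour kept by transplantation, whose cells float in the peritoneal fluid. The members were all probe sets for which the array's annotation lists a symbol of Serpin followed by a clade letter from a to i. This gave 53 genes of 21335 symbols, measured by 53 probe sets of 23410 annotated ones. Of these, 48 probe sets list 1 gene each and 5 list several near-identical copies. The 5 genes Serpina1a, Serpina1b, Serpina1e, Serpinb9f and Serpinb9g were measured only by probe sets of the latter kind. Clade A had 17 probe sets, clade B 27, clades F and I 2 each, and clades C, D, E, G and H 1 each.

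Male Swiss albino mice aged 4 to 5 months had received 1000000 DLA cells into the peritoneal cavity. The irradiated group was exposed over the whole body to 2 Gy of electrons on day 8 after transplantation, and the control group was not irradiated. Cells of both groups were collected 48 h after the exposure, and the question was how their messenger RNA differed. Each group had 2 arrays, labelled as biological replicates 1 and 2; the labels do not say whether each came from 1 mouse, so the p-values measure the spread between these samples. The tumour is a transplanted line, and the labels name no step that removes host cells of the ascites. As in any bulk sample, fewer cells of a type and less RNA per cell cannot be told apart.

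Serpins share a fold with an exposed reactive centre loop. A target protease cleaves the loop as if it were a substrate, the loop snaps into the body of the serpin, and the protease is trapped and inactivated. Clade A holds the secreted antitrypsin and antichymotrypsin relatives, made chiefly in liver. Clade B serpins lack a classical signal peptide and mostly act inside cells, where Serpinb9 protects against granzyme B and Serpinb1 and Serpinb6 relatives against proteases of neutrophil granules. The mouse has expanded several of these genes into clusters of close copies, and the Serpinb1, Serpinb6 and Serpinb9 copies lie together on chromosome 13.

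All levels here are log2 intensities of a probe set after robust multi-array averaging (RMA), and all differences are log2 differences. The arrays did not spread equally: across annotated probe sets the SD of the difference between replicates was 0.168 for the control and 0.428 for the irradiated arrays. Irradiated replicate 2 stood apart, where 93 annotated probe sets exceeded all other arrays by at least 4-fold; no other array had any (0 on each). Of these 93, 5 were serpin probe sets. The main results that rest on this array are therefore given with and without it, and the values of the irradiated arrays are given apart. The 14 measured T and B lymphocyte markers, the cell type of the label, lay between 3.69 and 6.35 on all arrays, and 0 of them reached the median of annotated probe sets on any array (6.71 to 6.75). Dimness also marks the serpins: 49 of 53 members had a mean over the arrays below the median of annotated probe sets (6.71), and 31 lay below their 25th percentile (5.33). Folds of dim probe sets are compressed on this scale. Lists of macrophage, platelet, fibroblast, mast cell and erythroid markers were also read. Their median differences between irradiated and control arrays were −0.02, 0.03, −0.105, 0.07 and −0.21 in that order. Single genes ran from −0.52 to 0.90, −0.09 to 0.68, −0.185 to 0.495, −0.13 to 0.215 and −0.695 to 0.195. A median near 0 therefore does not show that the genes of a list were level.

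The sequences shown are promoters of the Serpinb9 copies, and their part in the values was not tested. Of the 8 Serpinb9 probe sets, 6 were at least 2-fold above the control mean on irradiated replicate 2 and are called high below. Serpinb9 and Serpinb9b were not, although the level of Serpinb9b on that array was 10.96. The stretches below are the 150 bases before each RefSeq transcript start in assembly GRCm38.p6, written 5′ to 3′ on the gene's strand. Capitals mark TGACGT, the core of the cyclic AMP response element. The pair that was similar on all arrays comes first, then the copies listed by the high probe sets. Serpinb9f and Serpinb9g are listed only by probe sets of several genes, so neither can be called high by itself.
Serpinb9 promoter, chr13:33004391-33004540, plus strand: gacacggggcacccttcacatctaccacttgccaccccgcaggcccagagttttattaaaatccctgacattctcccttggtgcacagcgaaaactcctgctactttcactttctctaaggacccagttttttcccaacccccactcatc
Serpinb9b promoter, chr13:33027264-33027413, plus strand: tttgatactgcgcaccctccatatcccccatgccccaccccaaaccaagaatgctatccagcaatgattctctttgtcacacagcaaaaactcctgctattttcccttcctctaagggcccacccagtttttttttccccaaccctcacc
Serpinb9c promoter, chr13:33159755-33159904, minus strand: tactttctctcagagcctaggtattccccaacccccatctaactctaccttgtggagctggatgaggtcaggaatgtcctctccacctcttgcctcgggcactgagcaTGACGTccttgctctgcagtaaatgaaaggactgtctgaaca
Serpinb9d promoter, chr13:33192805-33192954, plus strand: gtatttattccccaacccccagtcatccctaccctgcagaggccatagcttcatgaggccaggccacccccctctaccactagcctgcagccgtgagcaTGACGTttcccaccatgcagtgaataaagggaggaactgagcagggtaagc
Serpinb9e promoter, chr13:33249458-33249607, plus strand: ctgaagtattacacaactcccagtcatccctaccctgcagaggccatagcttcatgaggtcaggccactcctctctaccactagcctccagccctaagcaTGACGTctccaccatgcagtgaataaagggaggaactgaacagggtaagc
Serpinb9f promoter, chr13:33323927-33324076, plus strand: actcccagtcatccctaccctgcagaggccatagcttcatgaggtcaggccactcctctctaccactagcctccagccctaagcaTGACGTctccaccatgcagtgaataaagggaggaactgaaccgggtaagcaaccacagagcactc
Serpinb9g promoter, chr13:33484640-33484789, plus strand: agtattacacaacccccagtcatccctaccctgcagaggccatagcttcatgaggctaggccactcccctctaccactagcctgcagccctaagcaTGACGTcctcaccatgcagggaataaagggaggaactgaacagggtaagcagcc

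Serpinb9c has 2 annotated starts, of which the upstream one is shown. Over windows of 300 bases (250 before to 50 after the start), Serpinb9d, Serpinb9e, Serpinb9f and Serpinb9g were 82.9% to 93.4% identical in global alignment. The same windows of Serpinb9 and Serpinb9b were 41.3% to 44.6% identical to these 4, and 57.4% identical to each other. Serpinb9c was 57.3% to 62.3% identical to the 4 at its upstream start and 49.1% to 51.5% at its other start. A run of 41 bases was common to Serpinb9d, Serpinb9e, Serpinb9f and Serpinb9g and to 0 other windows, as it occurred in 4 of the 32851 promoter windows of the RefSeq table. TGACGT, noticed by reading these sequences and then searched on both strands, was present in the windows of Serpinb9c (upstream start), Serpinb9d, Serpinb9e, Serpinb9f and Serpinb9g and absent from those of Serpinb9 and Serpinb9b, of the other Serpinb9c start and of Serpinb9h, so 5 of the 9 windows of the Serpinb9 copies held it. It started at positions −42, −51, −50, −65 and −54 from the start in Serpinb9c, Serpinb9d, Serpinb9e, Serpinb9f and Serpinb9g in that order. Over all windows, 7.51% hold it. The 5 matches lie in a run of 10 bases common to these 5 windows and found in 8 of all 32851. As 4 of these windows are also closely alike, the 5 matches are not independent. TATAAA was in 0 of the 9 windows of the Serpinb9 copies, against 13.6% of all windows. GCCNNNGGC, a TFAP2 motif, was in the upstream Serpinb9c window alone (16.6% of all windows), as was GGAATG, a TEAD motif, among the genes shown (14.7%). These matches describe letters in a window and no binding was measured.

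Among the serpins, the Serpinb9 copies formed the widest contrast between the irradiated arrays. Serpinb9e read 5.01 and 4.83 on the control arrays, 4.35 on irradiated replicate 1 and 10.14 on irradiated replicate 2. It was thus 37.3-fold above the control mean on irradiated replicate 2 and 1.48-fold below it on irradiated replicate 1, so the groups overlapped.

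The 3 probe sets that list Serpinb9d, Serpinb9e, Serpinb9f and Serpinb9g together behaved in the same way. Set 1 read 5.23 and 5.10 in controls, 4.99 on irradiated replicate 1 and 9.86 on irradiated replicate 2, a 25.9-fold excess on the last array. Set 2 read 5.36, 5.27, 5.12 and 10.64 in the same order, a 40.1-fold excess. For set 3 the values were 4.96, 4.97, 4.82 and 10.51, a 46.7-fold excess. On each of the 3, irradiated replicate 1 lay below both controls and irradiated replicate 2 far above them. All 5 accessions behind the Serpinb9e probe set and all 4 behind the Serpinb9d probe set are also listed for these 3 sets. The 5 probe sets are therefore not independent measures, and which of the 4 genes gave the signal cannot be told apart.

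Serpinb9d, alone on its probe set, read 3.12 and 3.56 in controls, 3.16 on irradiated replicate 1 and 5.46 on irradiated replicate 2 (4.35-fold above the control mean on the last). Serpinb9c, which shares 0 of its 5 accessions with the sets of several genes, read 5.09 on both controls, 5.40 on irradiated replicate 1 and 7.64 on irradiated replicate 2 (5.86-fold). Both irradiated arrays lay above both controls for Serpinb9c, whereas the groups overlapped for Serpinb9d.

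By contrast, Serpinb9 itself, the inhibitor of granzyme B, read 7.53 and 7.67 in controls and 7.68 and 8.08 in irradiated cells. Its neighbour Serpinb9b read 10.43 and 10.63 in controls and 10.59 and 10.96 in irradiated cells. On irradiated replicate 2 the log2 difference from the control mean was 0.48 for Serpinb9 and 0.43 for Serpinb9b, against 2.12 to 5.545 for the other 6 probe sets of the Serpinb9 copies.

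**Figure D1:**
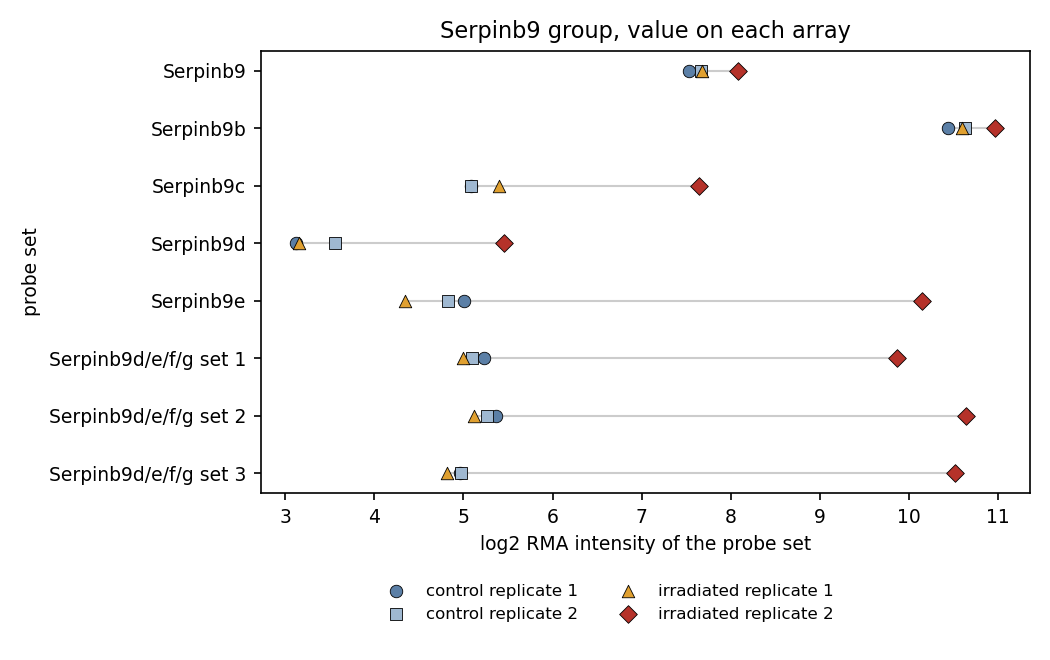
Log2 RMA intensity (horizontal axis) of the 8 Serpinb9 probe sets (rows) on each of the 4 arrays, with 1 symbol per array and a grey line over the range; overlying symbols hide equal values. In the lower 6 rows irradiated replicate 2 stands 2.12 to 5.545 above the control mean while irradiated replicate 1 lies among or near the controls; Serpinb9 and Serpinb9b show no such gap.

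Among 23410 annotated probe sets ranked by irradiated replicate 2 minus the control mean, set 3, set 2 and Serpinb9e stood at ranks 2, 3 and 5, set 1 at rank 15, Serpinb9c at rank 89 and Serpinb9d at rank 106. With both irradiated arrays together, limma gave log2 differences of 2.70 (standard error 1.78) for set 3, 2.565 (1.73) for set 2, 2.26 (1.53) for set 1 and 2.325 (1.82) for Serpinb9e. None passed the threshold: the limma adjusted p was 0.647, 0.652, 0.652 and 0.689 in that order, 0.579 for Serpinb9c and 0.682 for Serpinb9d. Without irradiated replicate 2, Serpinb9e and the sets 1, 2 and 3 turned to differences of −0.57, −0.175, −0.195 and −0.145, Serpinb9d to −0.18, and Serpinb9c kept 0.31. The high values of these copies are therefore values of 1 array.

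A list of trophoblast markers, chosen with earlier results of these data known, had 12 measured genes. Of these, 1 was at least 2-fold above the controls on irradiated replicate 2. That 1 was Prl8a9, a placental prolactin, which read 4.87 and 4.66 in controls, 5.21 on irradiated replicate 1 and 11.47 on irradiated replicate 2. The summed linear intensity of the 12 markers was 30255 and 30171 in controls, 25966 on irradiated replicate 1 and 21474 on irradiated replicate 2, of which the keratins Krt8 and Krt18 made up 76.7% to 93.9%. The other 10 markers, a split chosen after the values were seen, summed to 1866 and 1829 in controls, 2222 on irradiated replicate 1 and 5005 on irradiated replicate 2. Without Prl8a9 as well, the last 2 sums were 2185 and 2169. Of these 10, Eomes (9.95 to 10.42 over the arrays), Cdx2 (7.28 to 8.32) and Gata3 (7.96 to 8.38) lay above the array median on all 4 arrays. Elf5, Hand1, Ascl2, Tpbpa and Esrrb lay below it on all 4, between 3.50 and 6.51. The part of these genes in the Serpinb9 values was not tested.

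Along chromosome 13, among serpins with a probe set of their own, the high values were those of Serpinb9c, Serpinb9d and Serpinb9e. Smaller excesses were those of Serpinb1a and Serpinb1c at the edge of the cluster (1.13 and 1.005 on irradiated replicate 2). Serpinb9f and Serpinb9g, without a probe set of their own, lie beyond Serpinb9e. The shared signal therefore cannot be placed among Serpinb9d, Serpinb9e, Serpinb9f and Serpinb9g. In RefSeq order, the serpins with a probe set of their own run from Serpinb1a, Serpinb1c, Serpinb6b, Serpinb9, Serpinb9b and Serpinb1b through Serpinb9c, Serpinb9d and Serpinb9e to Serpinb6d, Serpinb6e, Serpinb6c and Serpinb6a. Serpinb6d, the next of these after Serpinb9e with a probe set of its own, read 4.84 on both controls and 4.65 and 5.11 on the irradiated arrays. The 10 nearest annotated genes outside the cluster, 5 on each side, differed from the control mean on irradiated replicate 2 by −0.535 to 0.59 with a median of −0.09.

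**Figure D2:**
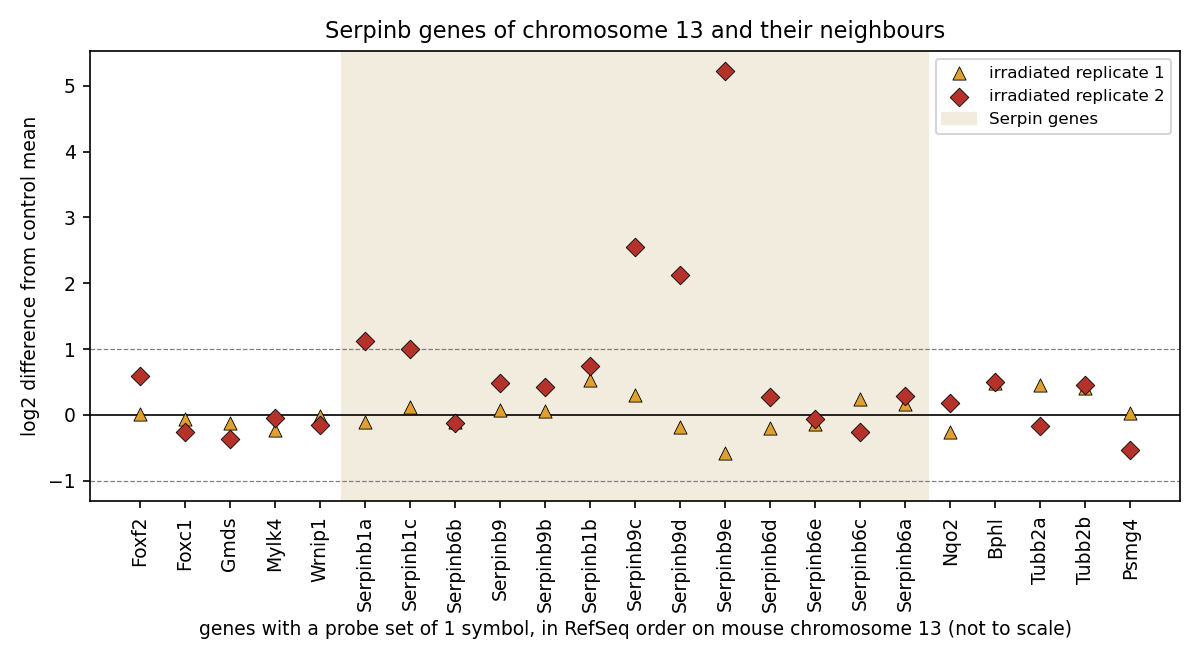
Log2 difference from the control mean (vertical axis) of irradiated replicates 1 (triangles) and 2 (diamonds) for genes in RefSeq order on chromosome 13, Serpin genes shaded, with dashed lines at a 2-fold difference; distances are not to scale and probe sets of several genes are left out. Serpinb9c, Serpinb9d and Serpinb9e stand at 2.55, 2.12 and 5.22 on irradiated replicate 2, and the 10 flanking genes lie between −0.535 and 0.59.

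The Serpinb1 copies are relatives of a human inhibitor of neutrophil elastase and cathepsin G, and they followed the high Serpinb9 copies in the size of their positive differences. Serpinb1b read 4.48 and 4.43 in controls and 4.99 and 5.20 in irradiated cells, so both irradiated arrays lay above both controls. The difference was 0.64 with a standard error of 0.13 (1.56-fold, unadjusted limma p of 0.00371, adjusted p = 0.405). It was the 1 member of 53 (1.89%) that was higher at an unadjusted p under 0.05 and at least 1.5-fold, where 1.57% of all annotated probe sets were.

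Serpinb1a read 4.45 and 4.71 in controls, 4.48 on irradiated replicate 1 and 5.71 on irradiated replicate 2. Serpinb1c followed the same order with 3.46, 3.71, 3.71 and 4.59. Both were about level with the controls on irradiated replicate 1 and 2.19-fold and 2.01-fold above the control mean on irradiated replicate 2 (limma adjusted p = 0.693 and 0.603). These 3 copies are close relatives, and signal shared among them was not tested; all 3 lay below the 25th percentile of annotated probe sets. Among 10 measured neutrophil markers, 8 had negative differences and the median was −0.73, while their summed linear intensity, carried by Ly6g (difference 3.12, limma adjusted p = 0.00831), was 1149 and 1290 in controls and 4600 and 4194 in irradiated cells. Their part in the Serpinb1 values was not tested.

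The Serpinb6 copies had small differences. Serpinb6a, a cytoplasmic inhibitor of cathepsin G, read 10.75 and 10.73 in controls and 10.91 and 11.03 in irradiated cells, a difference of 0.23 (standard error 0.11, limma adjusted p = 0.578). The 5 Serpinb6 probe sets had differences from −0.115 to 0.23, with a median of −0.01.

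Serpinb5 had the most negative difference of the family. It encodes maspin, a clade B serpin of epithelial cells that does not inhibit serine proteases in the usual way. It read 6.34 and 6.21 in controls and 5.49 and 5.32 in irradiated cells. Both irradiated arrays were below both controls, by 1.72-fold and 1.94-fold from the control mean. The difference was −0.87 with a standard error of 0.13 (1.83-fold, unadjusted limma p of 0.000911), and it did not pass the adjusted threshold (adjusted p = 0.311). Serpinb5 was the 1 member of 53 that was lower at an unadjusted p under 0.05 and at least 1.5-fold, a call made for 0.619% of annotated probe sets, and it met both limits in each fit that left out 1 array. The keratins Krt8 and Krt18, of epithelial cells and of the trophoblast list, were also lower on both irradiated arrays, with 13.93 and 13.30 against 14.07 and 14.11, and 12.99 and 12.64 against 13.45 and 13.38. The 12 trophoblast markers together had 6 positive and 6 negative differences and a median of −0.03. Both irradiated arrays lay above both controls for 4 of them (17.9% of annotated probe sets): Eomes (0.365), Gata3 (0.32), Esrrb and Prl8a9. They lay below both controls for another 4 (23.6% of annotated probe sets): Krt8, Krt18, Elf5 (−0.175) and Tfap2c (−0.24). The 8 mesothelial markers (5 positive and 3 negative differences) had a median of 0.03 and a summed linear intensity of 1276 and 1234 in controls and 1816 and 1353 in irradiated cells. Their part in the Serpinb5 difference was not tested.

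The remaining epithelial clade B genes were dim. Serpinb3a, Serpinb3c, Serpinb3d, Serpinb7, Serpinb11, Serpinb12 and Serpinb13, relatives of the squamous cell carcinoma antigens and of skin serpins, lay between 2.62 and 4.31 on all arrays. The largest difference among them was that of Serpinb3a, with 2.62 and 2.86 in controls and 2.83 and 3.46 in irradiated cells (unadjusted limma p of 0.146, adjusted p = 0.621).

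Serpinb2, the intracellular and secreted inhibitor of urokinase known as plasminogen activator inhibitor 2, read 4.42 and 4.51 in controls and 4.41 and 4.43 in irradiated cells, where the groups overlapped. The role list of plasminogen activator and thrombin inhibitors had 4 measured genes: Serpinb2, Serpina5, Serpine3 and Serpini1, the neuronal inhibitor of tissue plasminogen activator. Their differences ran from −0.135 to 0.06. Serpini1 read 5.53 and 5.39 in controls and 5.38 and 5.66 in irradiated cells.

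Clade A showed small differences in both directions, and 0 of its 17 probe sets was 2-fold from the controls on either irradiated array. The antitrypsin copies were measured by 2 probe sets that list Serpina1a to Serpina1e together, which read 5.15 and 5.13 against 5.07 and 5.21, and 5.83 and 5.85 against 5.84 and 5.55 (controls first). Serpina1c read 3.48 and 3.91 against 3.51 and 4.10, and Serpina1d 4.05 and 3.66 against 3.73 and 3.69. In each of these the irradiated arrays overlapped the controls. The 8 hepatocyte markers, of the cell type that makes most clade A serpins, had a median difference of −0.05, with 1 of them at or above the array median in controls.

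Serpina3n, an antichymotrypsin relative induced in the acute phase response, had the largest positive difference of clade A. It read 5.56 and 5.36 in controls, 5.59 on irradiated replicate 1 and 6.34 on irradiated replicate 2. The groups did not overlap, but the array values were 1.09-fold and 1.84-fold above the control mean, and the difference of 0.505 (standard error 0.27) did not pass (limma adjusted p = 0.597).

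Serpina4-ps1, annotated as a pseudogene, read 5.42 and 5.14 in controls and 4.87 and 4.95 in irradiated cells. Its difference of −0.37 (standard error 0.14) had an unadjusted limma p of 0.0456 and an adjusted p of 0.522. The carriers of steroid and thyroid hormones, Serpina6 and Serpina7, read 3.98 to 4.05 and 3.42 to 3.84 over all arrays. Serpina3g and 10 other antichymotrypsin copies and pseudogenes of that group were among the RefSeq serpins not analysed here.

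The serpins of clotting, fibrinolysis and complement were level or slightly lower. Serpinc1, antithrombin, read 5.57 and 5.60 in controls and 5.49 and 5.67 in irradiated cells. Serpind1, heparin cofactor II, read 6.08 and 6.39 in controls and 6.53 and 5.95 in irradiated cells, which lay on opposite sides of the controls. For Serpinf2, the plasmin inhibitor, the values were 6.26 and 6.29 against 6.17 and 6.15, lower on both irradiated arrays by 0.105 and 0.125 (limma adjusted p = 0.73). Serping1, the C1 inhibitor of complement, read 4.84 and 5.01 against 4.92 and 4.68.

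Members without protease inhibition were similar. Serpinf1, the pigment epithelium-derived factor, read 5.99 and 5.85 in controls and 5.91 and 5.50 in irradiated cells. Serpinh1, the collagen chaperone HSP47, read 5.63 and 5.61 in controls and 5.64 and 5.39 in irradiated cells. For both, irradiated replicate 2 was below the controls and irradiated replicate 1 was within 0.02 of the control mean. The 9 probe sets of clades C to I had differences from −0.215 to 0.06.

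**Figure D3:**
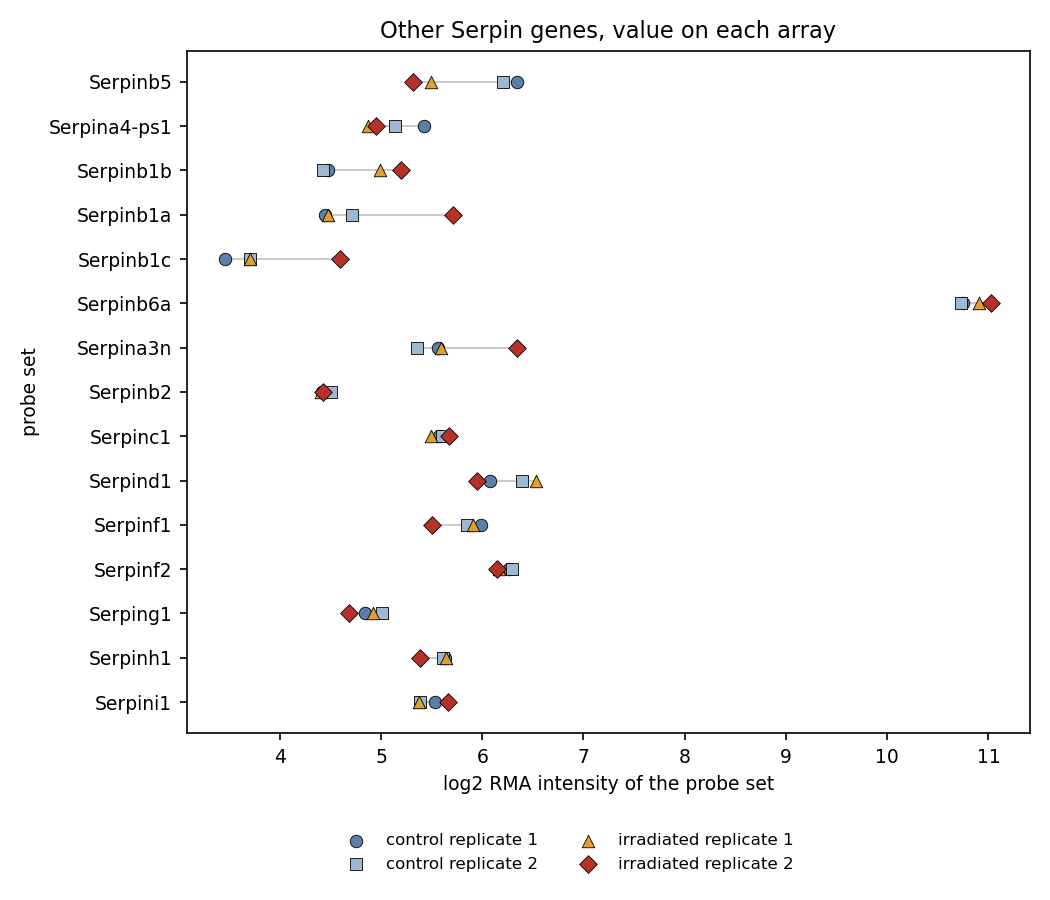
Log2 RMA intensity (horizontal axis) of 15 serpin probe sets outside the Serpinb9 group (rows) on each of the 4 arrays, 1 symbol per array, with a grey line over the range; overlying symbols hide equal values. Serpinb5 is lower and Serpinb1b higher on both irradiated arrays, Serpinb1a, Serpinb1c and Serpina3n are highest on irradiated replicate 2, and the plasma serpins overlap or nearly overlap.

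The 27 members not described singly by the naming rule, 11 of clade A and 14 of clade B among them, had differences from −0.295 to 0.405 with a median of −0.01. Of these, 1 lay above (3.7%) and 5 lay below (18.5%) both controls on both irradiated arrays, where 17.9% and 23.6% of annotated probe sets did. Serpina9, a germinal centre B cell serpin, was the 1 that was higher, with 5.02 and 4.83 in controls and 5.17 and 5.34 in irradiated cells (unadjusted limma p of 0.0556, adjusted p = 0.535).

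With each irradiated array apart, the clade medians lay close together on irradiated replicate 1 and further apart on irradiated replicate 2, a contrast given as a description with no test. The median difference from the control mean on irradiated replicate 1 was −0.07 for clade A, −0.015 for clade B and −0.08 for the 9 probe sets of clades C to I. On irradiated replicate 2 it was −0.04, 0.29 and −0.125. Over all annotated probe sets these medians were −0.015 on irradiated replicate 1 and −0.03 on irradiated replicate 2. Without the 6 Serpinb9c, Serpinb9d, Serpinb9e and several-gene probe sets, the clade B median on irradiated replicate 2 was 0.195.

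**Figure D4:**
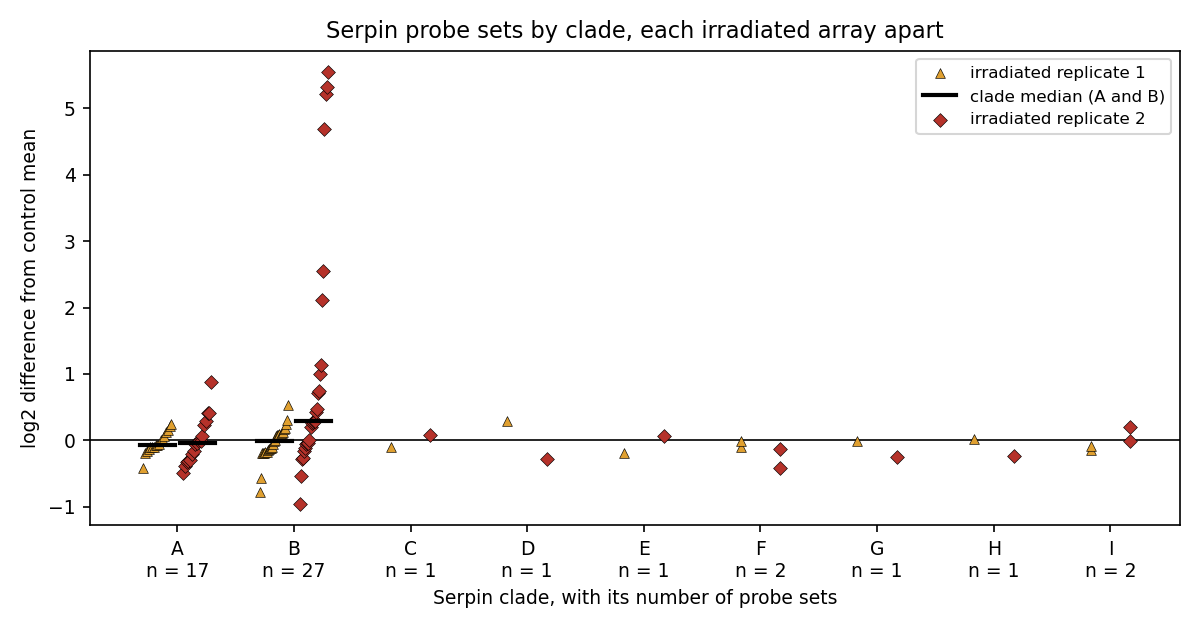
Log2 difference from the control mean (vertical axis) of each serpin probe set by clade (horizontal axis, with its number of probe sets), irradiated replicate 1 as triangles and irradiated replicate 2 as diamonds, bars at the medians of clades A and B; points are sorted by value within a clade. On irradiated replicate 2 clade B reaches 5.545, and clade A lies between −0.49 and 0.88.

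At least 2-fold above the control mean and above both controls were 0 of 53 members on irradiated replicate 1 (0.384% of annotated probe sets) and 8 of 53 on irradiated replicate 2 (1.58%). All 8 were clade B genes of chromosome 13: the 6 Serpinb9 probe sets named above, of which 5 share accessions, and Serpinb1a and Serpinb1c. At least 2-fold below were 0 members on irradiated replicate 1 (0.107% of annotated probe sets) and 0 on irradiated replicate 2 (0.273%).

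**Figure D5:**
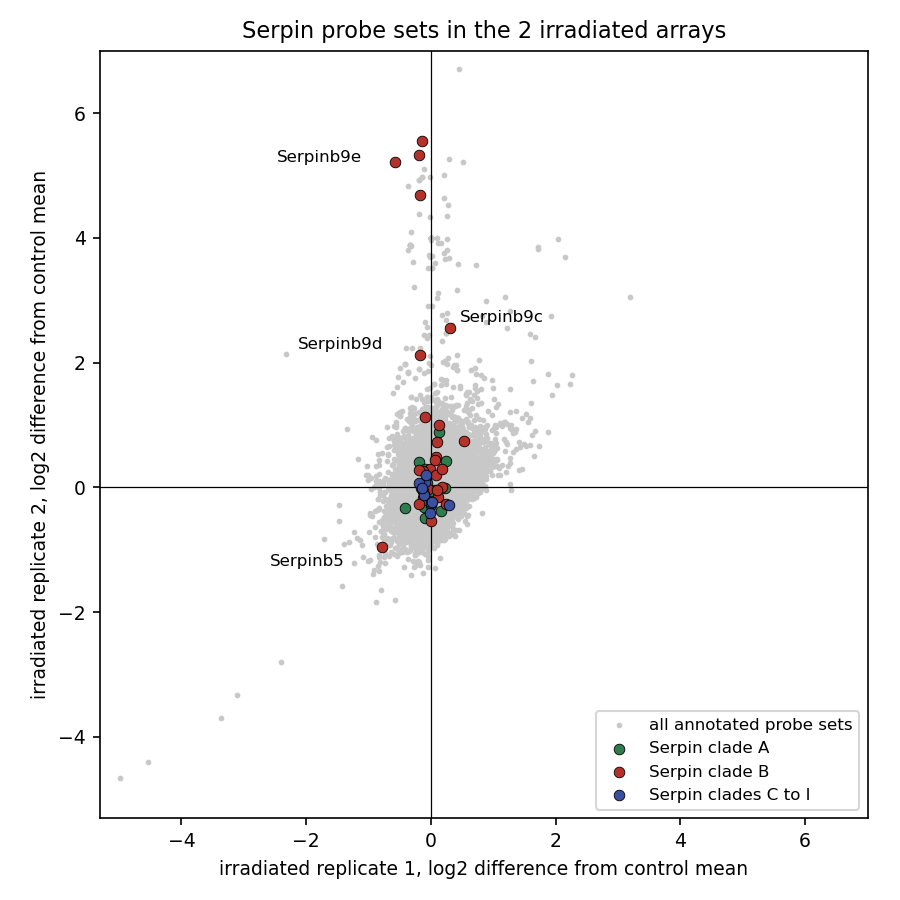
Log2 difference from the control mean on irradiated replicate 1 (horizontal axis) against irradiated replicate 2 (vertical axis) for all annotated probe sets (grey) and the serpins by clade (coloured). The 6 high Serpinb9 probe sets lie high on the vertical axis, between −0.57 and 0.31 on the horizontal one, and Serpinb5 lies below 0 on both, at −0.785 and −0.955.

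With both irradiated arrays together, 0 of 53 members passed the limma adjusted threshold of 0.05, where 0.0256% of annotated probe sets did. At an unadjusted limma p under 0.05 were 3 members (5.66%, Serpinb5, Serpinb1b and Serpina4-ps1), against 9.46% of annotated probe sets. Both irradiated arrays lay above both controls for 6 members (11.3%, against 17.9% of annotated probe sets) and below them for 8 (15.1%, against 23.6%). The median difference of the family was 0.015, with 28 positive and 24 negative differences, beside −0.025 over all annotated probe sets. Group means at least 1.5-fold higher were found for 7 members (13.2%, against 2.52%), 6 of them the Serpinb9 probe sets that were high on irradiated replicate 2, and means at least 1.5-fold lower for Serpinb5 alone (1.89%, against 0.76%). Without that array these counts were 0 higher (2.02% of annotated probe sets) and 1 lower (0.906%). The count of members higher at an unadjusted p under 0.05 and 1.5-fold depended on the irradiated arrays: it was 11 (5.39% of annotated probe sets) without irradiated replicate 1, where the spread comes from the controls alone, and 0 (1.89%) without irradiated replicate 2, since Serpinb1b was then 0.535 higher.

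The proteases, cofactors and other inhibitors around the serpins were read from lists by role, with 1 probe set per gene. Among 42 measured serine proteases that serpins inhibit and their receptors, 2 were higher and 1 lower at an unadjusted limma p under 0.05 and 1.5-fold (1.57% and 0.619% of annotated probe sets), and 0 passed the adjusted threshold. C1s1, a complement protease and target of the C1 inhibitor, read 4.24 and 4.41 in controls and 5.21 and 7.32 in irradiated cells (difference 1.94, standard error 0.67, limma adjusted p = 0.50; 0.885 without irradiated replicate 2). Plau, the urokinase that Serpinb2 blocks, read 9.65 and 9.50 in controls and 10.81 and 9.92 in irradiated cells (adjusted p = 0.523). F2r, a thrombin receptor, read 9.59 and 9.70 in controls and 9.15 and 8.85 in irradiated cells (adjusted p = 0.445).

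Gzmb, granzyme B, the protease that Serpinb9 inhibits, read 4.59 and 4.83 in controls and 4.41 and 4.23 in irradiated cells, and was dim on all arrays. Named outside the rule, after its values were seen, it had an unadjusted limma p of 0.0401 and a difference under 1.5-fold. The 42 genes had a median difference of −0.03, and of −0.055 to 0.015 in fits without 1 array.

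Of 16 measured cysteine proteases, 0 met both limits, with 10 positive differences and a median of 0.16, which was 0.07 without irradiated replicate 2. Among 12 cofactors and clearance receptors, 1 was higher and 0 lower by the same limits (1.57% and 0.619% of annotated probe sets): Lrp1, the receptor that clears serpin and protease complexes, read 8.39 and 8.14 in controls and 8.82 and 8.93 in irradiated cells (difference 0.61, standard error 0.14, limma adjusted p = 0.442). The 39 protease inhibitors of other families had 0 called in either direction and a median of −0.005 (−0.01 to 0.035 without 1 array). The 17 collagens and collagen modifiers around Serpinh1 likewise had 0 called, with a median of −0.08 (−0.22 to 0.015 without 1 array).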

How the data were processed

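Biotin-labelled complementary DNA made from 300 ng of total RNA of 2 control and 2 irradiated samples was hybridised to one-colour arrays, per the labels' protocols. The deposited values are log2 probe set intensities made by the authors with RMA, which corrects background, equalises the arrays and summarises the probes of a set, per the submitters' processing notes, which give no version. Genome build: not given in the sources used here. RMA hides a change shared by most genes. The table held 0 columns of other samples, and scan dates were not used here.

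Names came from the platform's annotation table. The test covered all 23410 annotated probe sets, of which 21789 list 1 symbol and 1621 several, in R 4.3.3 with limma 3.58.1 (two-sided moderated test, no intensity trend, Benjamini-Hochberg over all probe sets, 2 residual and 3.11 prior degrees of freedom). A further count used an unadjusted p under 0.05 with at least 1.5-fold; the single-array count used 2-fold. The fit was tested on simulated data. Of the 69 RefSeq serpin genes and pseudogenes of GRCm38.p6, 53 had a listed probe set; the rest, Serpinb3b and Serpinb9h among them, were not analysed here. Promoters come from the RefSeq table of that assembly.

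The members and lists were chosen with earlier results of these data known. Named members are those with an unadjusted p under 0.05, group means 1.5-fold apart, or an irradiated array 2-fold outside the controls, plus 17 entries of known role; genes of the role lists are named at both limits. Serpinb9b, Serpina5, Serpina6, Serpina7, Serpina9, Serpine3, Serpinb7, Serpinb11, Serpinb12, Serpinb13, the Serpinb3 and Serpinb6 copies, the flanking genes and the single marker genes were named beyond this rule after their values were seen. Alternatives were dim filters, quantile normalization, centring, every row, genes in place of probe sets, eBayes with trend or robust, the replicate block, each array left out and other folds.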

Additional observations from a re-analysis of the deposited data

How the results depend on the processing

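Precision is limited by 2 arrays per group and by dim signal, as 49 of 53 members lay below the median of annotated probe sets. In all 14 refits, 0 members passed the adjusted threshold (3 passed an unadjusted limma p of 0.05 on all arrays). For Serpina4-ps1 that unadjusted limma p was 0.0533 with eBayes trend, 0.0625 after centring, 0.0641 over every row and 0.0735 with the replicate block. It was 0.0418 to 0.0461 in the other refits that keep every array and test this member. The differences of the 11 members named for their values were followed through these refits where they were tested; none turned in the settings that keep every array (adjusted p from 0.182 to 0.766 over these). Fits without 1 array assume that the lone array varies like the other group. In them the differences ran from −0.57 to 5.22 for Serpinb9e, −0.18 to 2.12 for Serpinb9d, −0.175 to 4.695, −0.195 to 5.325 and −0.145 to 5.545 for the several-gene sets 1, 2 and 3, and −0.10 to 1.13 for Serpinb1a, each turning negative without irradiated replicate 2.

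The count of members higher at an unadjusted p under 0.05 and 1.5-fold was 0 with either dim filter, which removes Serpinb1b, and 0 to 11 without 1 array. The count lower was 0 with the median filter, which keeps 4 members, and 1 in every fit without 1 array. At 2-fold both counts were 0. On single arrays, 1 member was lower on each irradiated array at 1.5-fold, against 0 at 2-fold. The family median ran from −0.06 to 0.04 without 1 array and was 0.2375 for the 4 members above the median filter. The clade A median was −0.13 with the 25th percentile filter, −0.0788 after quantile normalization, 0.00 after centring and −0.075 to −0.04 without 1 array.

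The labels state no pairing of replicates by number. The replicate 1 minus 2 differences of both groups correlated with r = 0.004 across probe sets. This value cannot exclude a pairing, as the irradiated differences spread more widely (SD 0.428 against 0.168 in controls). With the replicate block, 0 members passed the adjusted threshold, 1 was higher and 1 lower at the unadjusted limits, and the family median was 0.015.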
